A study of Phaffia rhodozyma with 29 samples.

Results

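The peaks described here are the entries of the ChIP-exo peak table of the strain CBS_FLAG-SRE1N that share at least 1 base with an entry of the peak table of the strain CBS_cyp61-_FLAG-SRE1. They were chosen by measured values, the peak calls of both tables, and number 767 of 1156 entries in the first table (the SRE1N table), and the second table (the cyp61- table) holds 712 entries, of which 563 lie under them. Both strains derive from the wild type CBS 6938 of the red yeast Xanthophyllomyces dendrorhous (Phaffia rhodozyma), and both carry a FLAG epitope fused to the transcription factor Sre1. The second strain is also named cyp61-, after the interrupted CYP61 locus. The tagged construct is written SRE1N in one strain and SRE1 in the other, and the labels do not say what differs between them. Cells were grown under standard conditions to the late exponential phase, with 3 biological replicates per strain, and chromatin was precipitated with an antibody against FLAG. Each strain has 1 peak table that stands for its 3 replicates, so a peak has no replicate error, and no difference between the strains or between groups of peaks was tested. The control precipitations (IgG, and the strain named sre1-) and the RNA polymerase II library were not analysed here, and how much of the shared signal depends on Sre1 was not tested.

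Sre1 belongs to the sterol regulatory element-binding proteins. These factors are made as precursors in the membrane of the endoplasmic reticulum. When sterols are low, the precursor is cut and its amino-terminal part moves to the nucleus, where it binds DNA and activates genes of sterol synthesis and uptake. CYP61 encodes a sterol desaturase that acts late in the making of ergosterol, and X. dendrorhous is known for making the carotenoid astaxanthin from precursors that the sterol pathway also uses. ChIP-exo trims the precipitated DNA with an exonuclease towards the edge of the bound protein. Peak positions are on numbered contigs of the assembly QXden1.PacBioOnly, and the files give no gene coordinates, so peaks are named by contig, start and end, and no gene was assigned to them.

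The shared entries fell into 441 separate loci, each made by merging all entries of both tables that share a base. A further 277 loci were found in the SRE1N table only and 132 in the cyp61- table only. The shared loci were thus 61.4% of the 718 loci of the SRE1N table (95% Wilson interval 57.8% to 64.9%) and 77.0% of the 573 loci of the cyp61- table (73.3% to 80.2%). Counted by entry, 767 of 1156 SRE1N entries overlapped the other table, which is 66.3% of all entries tested and is the count that the choice of peaks itself fixes. These intervals cover counting error only.

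No peak sat close to the limit of 1 base. The smallest overlap was 109 bases, at the SRE1N entry on contig 11 from 7343 to 7910, followed by 120 bases on contig 4 (1198014 to 1198183) and 123 bases on contig 9 (787528 to 787754). Among the SRE1N entries left out, the nearest to a cyp61- entry lay 192 and 198 bases away, both on contig 16 (11359 to 11941 and 11362 to 11935), and 210 bases away on contig 4 (1855907 to 1856414). The fold enrichments of these 3 entries just inside the limit were 1.43, 2.19 and 3.42, and those of the 3 just outside were 2.06, 1.74 and 1.90. Of the 389 entries left out, 365 had no cyp61- entry within 1000 bases and 209 had none within 10000 bases.

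Most shared loci were listed more than once within a table. Of the 441 loci, 324 held 2 SRE1N entries, 116 held 1, and 1 locus held 3 (contig 7, 686606 to 688007). Of the same loci, 122 held 2 cyp61- entries and 319 held 1. Fold enrichment, here the authors' ratio of stacked reads over background, and the deposited −log10 p could be solved together for the number of reads stacked at the peak (the pileup) and the background it was compared with. The solution assumes the scoring formulas of MACS2, the peak caller named in the submitters' processing notes. The pileup came within 0.02 of a whole read in all 1156 SRE1N entries and in the 515 cyp61- entries with 1 solution. The other 197 cyp61- entries had more than 1 solution, and the one nearest a whole read was taken.

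The backgrounds fell on 2 fixed levels in each table. A background of 20.89 reads lay behind 486 SRE1N entries and one of 30.82 reads behind 482. Among cyp61- entries, 425 had 1.81 reads and 104 had 5.86 reads. The other 188 SRE1N entries and 183 cyp61- entries had a background of their own, above the lower fixed level, and are called entries with a raised local background. The 2 levels paired up at many loci: 296 of the 441 shared loci held an SRE1N entry at each level, and 100 held a cyp61- entry at each level. Of the 277 SRE1N-only loci, 75 held an entry at each level. At 89 shared loci both levels were present in both tables. The sources used here do not say which libraries, controls or settings the 2 levels stand for, so the 2 entries of a locus were not treated as replicates.

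**Figure D1:**
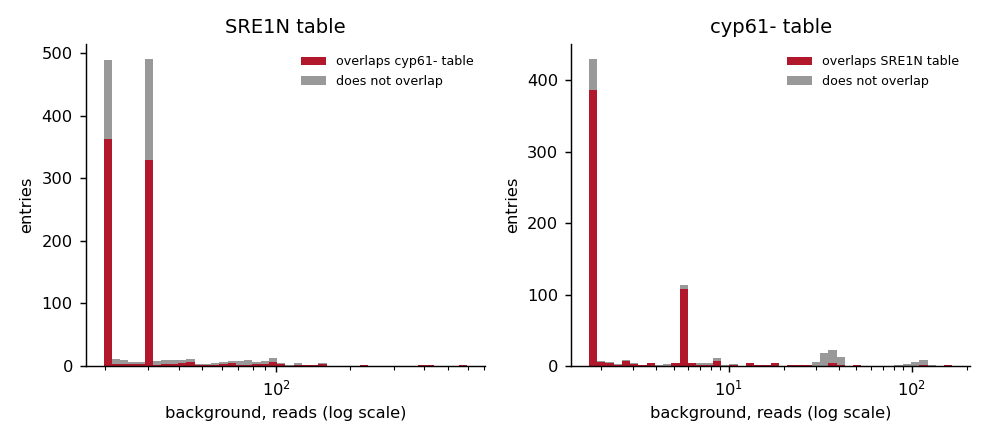
Background behind each peak entry, in reads on a log axis, against the number of entries, for the SRE1N table (left) and the cyp61- table (right), with entries that overlap the other table in red and the rest in grey. Each table has 2 tall columns, at 20.89 and 30.82 reads on the left and at 1.81 and 5.86 reads on the right, and the other entries, spread between the 2 columns and to their right, hold the raised local backgrounds.

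Overlap differed among these kinds of entry. In the SRE1N table, 360 of the 486 entries at the lower background overlapped the cyp61- table (74.1%), as did 326 of the 482 at the higher background (67.6%) and 81 of the 188 with a raised local background (43.1%). In the cyp61- table, 103 of the 104 entries at the higher background overlapped the SRE1N table (99.0%), against 383 of 425 at the lower one (90.1%) and 77 of 183 with a raised local background (42.1%).

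The peaks of the 2 tables rest on very different numbers of stacked reads. Shared entries had a median pileup of 157 reads in the SRE1N table, with a range of 39 to 1542, and the cyp61- entries under them had a median of 27 reads, with a range of 8 to 411. At the lower background of the cyp61- table the smallest fold enrichment listed was 2.84. It was 2.48 at the higher background and 1.44 over the whole cyp61- table. Of the 389 SRE1N entries left out, 214 had a fold enrichment below 2.84, as had 114 of the 767 shared entries. The fold enrichments of the 2 tables rest on different backgrounds, so 2.84 is not a cutoff common to both. The part that depth plays in which peaks are shared was not tested.

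Shared peaks were the stronger part of the SRE1N table. Since overlap requires a call in both tables, the following values describe the choice of peaks and are not a test. Shared entries had a median fold enrichment of 5.48, with quartiles of 3.52 and 9.08, and the entries left out had a median of 2.65, with quartiles of 2.14 and 3.74. All 23 SRE1N entries with a fold enrichment of at least 20 were shared, and so were 431 of the 477 with at least 5. At 10-fold or more, 161 entries were shared and 7 were not. When the table was divided into 5 classes of nearly equal size by fold enrichment, 29.7% of the lowest class was shared, then 51.5%, 67.5%, 90.0% and 93.1% of the highest. In the cyp61- table the same series ran from 29.4% in the lowest class to 74.6%, 93.0%, 99.3% and 99.3%. The highest fold enrichment among entries left out was 14.05.

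Shared peaks were also wide. The interval from start to end of a shared entry had a median width of 596 bases, with quartiles of 389 and 873.5 and a range of 155 to 4310, against a median of 343 for entries left out. Merged over both tables, a shared locus had a median width of 647 bases, an SRE1N-only locus 345 bases and a cyp61-only locus 295.5 bases. Shared loci join entries of both tables, while the other kinds hold entries of their own table alone, so merging favours width in shared loci. A wide interval is also more likely to overlap an entry of the other table. The greater width of shared entries and loci is thus partly fixed in advance, and it was not tested. Loci wider than 1000 bases numbered 104 of 441 among the shared and 5 of 277 among the SRE1N-only loci, and all 7 loci of these kinds wider than 2000 bases were shared. Shared entries had a median width of 584.5 bases at the lower background level and 640.5 at the higher, and entries left out had 315 and 346.

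**Figure D2:**
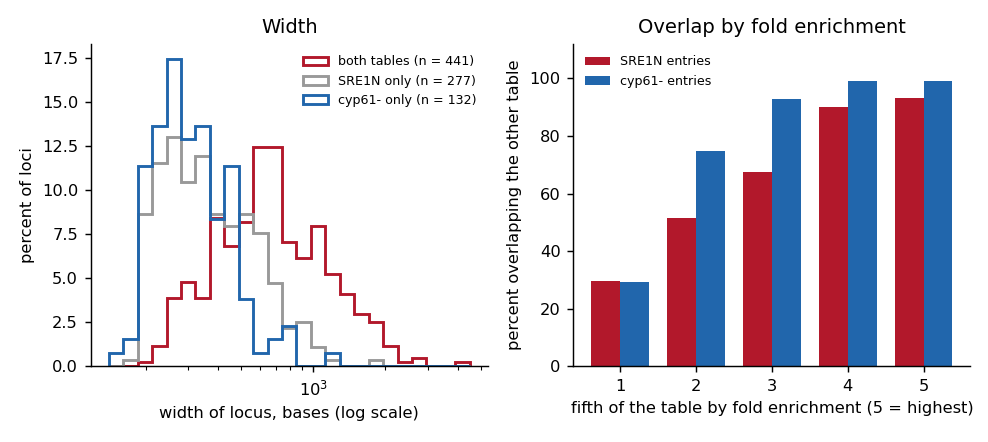
Left, width of loci in bases on a log axis against the percent of loci, for loci in both tables, in the SRE1N table only and in the cyp61- table only. Right, percent of entries that overlap the other table in each of 5 equal classes of the table by fold enrichment. The curve of the 441 shared loci lies to the right of the other curves, around its median of 647 bases, and the bars climb from about 29.4% to 29.7% in the lowest class to 93.1% (SRE1N) and 99.3% (cyp61-) in the highest.

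The widest shared locus lay on contig 0 from 135078 to 139433 and spanned 4356 bases, with a best fold enrichment of 15.7 in the SRE1N table and 18.1 in the cyp61- table. The next lay on contig 6 from 338407 to 341174 (2768 bases, 9.18-fold and 11.7-fold) and on contig 3 from 1177500 to 1180177 (2678 bases, 19.6-fold and 25.2-fold). The narrowest lay on contig 1 from 885628 to 885834 (207 bases), on contig 8 from 552100 to 552318 (219 bases) and on contig 1 from 936265 to 936487 (223 bases). Their best fold enrichments were 3.08, 2.32 and 2.65 in the SRE1N table and 5.33, 7.13 and 4.97 in the cyp61- table. Across the 441 loci, width and best fold enrichment ran in the same direction, with a Spearman correlation of 0.66 in the SRE1N table and 0.56 in the cyp61- table. Both measures of a locus come from the same reads, so this is a description of the tables.

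The length column of the tables is not always the distance from start to end. It was longer in 450 of the 767 shared entries (58.7%) and in 256 of the 389 entries left out (65.8%), and it was shorter in none of either. Among shared entries the difference followed the background level: 312 of 326 entries at the higher level had an interval shorter than the stated length (95.7%), against 87 of 360 at the lower level (24.2%). The sources used here do not say why the stated length and the interval differ. By the length column the median of shared entries was 665 bases and the largest 5254 bases.

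The next values describe how shared peaks lined up between the strains. Each was chosen for overlapping a cyp61- entry and set against the one of largest overlap, so close alignment is partly fixed in advance. The 767 entries lie in 441 loci, so most loci enter more than once. The cyp61- entry with the largest overlap covered a median of 79.4% of the shared SRE1N entry, with quartiles of 63.7% and 93.8%, and a median of 100% of the cyp61- entry itself lay under the SRE1N entry. The cyp61- entry lay wholly inside the SRE1N entry in 406 of the 767 cases and enclosed it in 120, and in 241 neither enclosed the other. The SRE1N entry was the wider of the pair in 552 cases. The cyp61- entry started a median of 46 bases further along the contig and ended 47 bases earlier. The centres of the 2 entries were a median of 46.5 bases apart, with quartiles of 21 and 94 and a largest value of 777 bases, and showed no net shift along the contig, with a median of -2 bases. Of the shared entries, 541 had 1 cyp61- partner and 226 had 2.

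Fold enrichments of the shared loci ranked alike in the 2 tables. The best fold enrichment of a locus had a Spearman correlation of 0.80 between the tables over 441 loci, and of 0.80 over the 380 loci with no raised local background. The entries at the 2 background levels of one table correlated at 0.89 over 296 loci in the SRE1N table and at 0.88 over 100 loci in the cyp61- table, and the lower levels of both tables at 0.86 over 353 loci. Loci enter these values only if they were called in both tables, and they share the genome's own sequence and mappability. Of the 10 loci ranked highest in each table, 5 were the same, as were 11 of 20 and 35 of 50. Ranks within shared loci compare loci inside a table and do not measure a change between strains, and the 2 background levels of one table are not on 1 scale. At shared loci with both levels, the entry at the higher level had a median of 2.37 times the pileup of the other in the SRE1N table and 1.01 times in the cyp61- table, where its fold enrichment was 0.414 times that of the other.

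**Figure D3:**
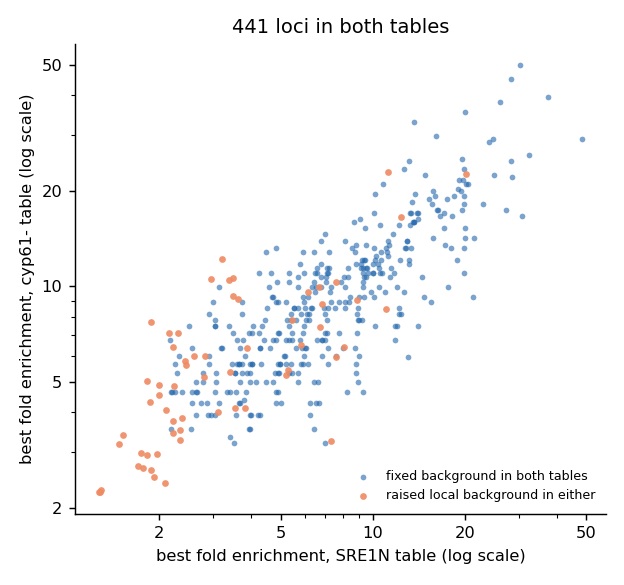
Best fold enrichment of each of the 441 shared loci in the SRE1N table (x, log scale) against that in the cyp61- table (y, log scale). Loci with a fixed background in both tables are blue and loci with a raised local background in either are orange; the points follow a rising band (Spearman correlation 0.80), with most orange points at its lower end.

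A small group of loci ranked near the top in both strains. Ordered by the worse of their 2 ranks, the first was the locus on contig 2 from 798761 to 799839. The SRE1N table listed it at 37.6-fold with 1194 stacked reads (95% Poisson interval 1127 to 1264) and again at 17.4-fold with 379 reads, and the cyp61- table listed it at 39.4-fold with 110 reads (90.4 to 133). These intervals cover counting error only. It ranked 2 and 3 of the 441 loci.

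The second locus lay on contig 5 from 1385557 to 1387418. It had 1 SRE1N entry at 30.3-fold with 662 reads. Its 2 cyp61- entries had the same start and end and stood at 49.7-fold with 139 reads and 15.7-fold with 107 reads, the first being the highest fold enrichment of either table. The third locus lay on contig 1 from 1302747 to 1303859, with SRE1N entries of 28.4-fold (904 reads) and 16.0-fold (350 reads) and cyp61- entries of 45.1-fold (126 reads) and 16.3-fold. The fourth lay on contig 6 from 617918 to 619473 and was the highest of the SRE1N table, at 48.5-fold with 1542 reads and 21.8-fold with 477 reads. In the cyp61- table it stood at 29.1-fold with 81 reads (64.3 to 101) and 8.46-fold with 57 reads, and ranked 8. In each of these loci the best cyp61- entry rested on fewer reads than the best SRE1N entry.

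Next came contig 4 from 525390 to 526680 (26.02-fold in the SRE1N table and 38.0-fold in the cyp61- table), contig 0 from 579797 to 581326 (32.6-fold and 25.9-fold) and contig 6 from 491186 to 491948 (24.8-fold and 29.1-fold). They were followed by contig 3 from 1249862 to 1250758 (28.3-fold and 24.9-fold) and contig 6 from 1362133 to 1363878 (24.0-fold and 28.4-fold). The first 20 loci by this order lay on 8 contigs, had best fold enrichments of 19.4 to 48.5 in the SRE1N table and 19.2 to 49.7 in the cyp61- table, and were 644 to 2678 bases wide, with a median of 1291.5. Of the 20, 15 were wider than 1000 bases and 15 had 2 entries in both tables. Among the 20, the locus on contig 5 from 40949 to 42072 was the one with raised local backgrounds, of 31.1 and 1.84 reads at its best entries.

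Some loci ranked unequally in the 2 tables. The locus on contig 2 from 1278381 to 1279000 ranked 178 in the SRE1N table (7.29-fold, 231 reads) and 427 in the cyp61- table (3.25-fold, 15 reads). On contig 9 from 776953 to 777542 the ranks were 132 and 371 (9.33-fold with 296 reads, 4.62-fold with 12 reads), and on contig 2 from 49756 to 51233 they were 73 and 312 (13.0-fold with 414 reads, 5.98-fold with 40 reads). In the other direction, the locus on contig 2 from 2290138 to 2290450 ranked 367 in the SRE1N table (3.22-fold, 483 reads) and 99 in the cyp61- table (12.2-fold, 119 reads). On contig 1 from 2452145 to 2452458 the ranks were 381 and 151 (2.97-fold and 10.5-fold), and on contig 0 from 1686685 to 1687073 they were 307 and 90 (4.48-fold and 12.8-fold). The first 2 of these 3 were the last entries of their contigs in any table, and both had raised local backgrounds in both tables, of 149 and 63.7 reads in the SRE1N table. Background levels also differed among these loci, and the ranks depend on them. The best cyp61- entry stood over 3.92 reads at the locus from 1278381 and over 5.86 reads at the locus from 49756. At the locus from 776953 it stood over the lower fixed level of 1.81 reads. The locus from 1686685 had 1 SRE1N entry, at the lower level of 20.89 reads. The cyp61- values on the low side rest on 12 to 40 reads, where the Poisson interval is wide (6.20 to 20.96 for 12 reads), and no difference in rank was tested.

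Shared loci were spread over all large contigs, at uneven density. They lay on 16 of the 22 contigs of the assembly that hold an entry, with 435 of the 441 on contigs 0 to 10. These 11 contigs reach from 1028573 bases (contig 10) to 2649842 bases (contig 0), taking the highest peak end in any table as the length, which is a lower bound. Over all of them there were 6.78 shared loci per 100 gene models and 22.1 per megabase of this span. The gene models are the 6469 genes of the RNA-seq count table of the wild type, which gives each gene's contig but no position.

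Contig 3 stood highest. It held 82 shared loci, which is 18.6% of them, on 728 gene models, which is 11.3% of the genes. That is 11.3 shared loci per 100 gene models, or 35.9 per megabase of span. Contig 9 followed with 33 loci (9.46 per 100 gene models), then contig 10 with 26 (7.76), contig 8 with 28 (7.05), contig 1 with 54 (6.83) and contig 4 with 38 (6.28). Lower were contig 5 with 35 (6.07), contig 0 with 54 (6.03), contig 6 with 28 (5.6), contig 7 with 22 (4.70) and contig 2 with 35 (4.56). Contigs 2 and 3 are of nearly the same span, 2290450 and 2283972 bases, and differed 82 to 35 in shared loci. Loci found in the SRE1N table only were spread more evenly, from 3.24 per 100 gene models on contig 0 to 5.13 on contig 7, with 4.40 on contig 3 and 4.30 on contig 2. Whether the 2 kinds of locus differ in their spread was not tested.

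Among the 11 large contigs, the share of SRE1N entries that were shared was 75% on contig 3 and 74.1% on contig 9, and lowest on contig 7 (50.7%) and contig 2 (56.6%), beside 66.3% over the whole table. Contig 7 also had the lowest median best fold enrichment of its shared loci in the SRE1N table, 3.65, against 5.89 to 8.65 on the other 10 large contigs. Its shared SRE1N entries included some with a raised local background, such as 1303250 to 1303601 (1.53-fold), 1322709 to 1323081 (1.70-fold) and 23820 to 24955 (11.2-fold). Over all contigs, shared entries of that kind had a median of 2.49-fold, against 4.84 at the lower level and 7.12 at the higher. The part that background plays in the values of contig 7 was not tested. In the cyp61- table the median on contig 7 was 7.11, which was also the lowest of the 11, level with contig 5, and the highest was 10.1 on contig 6. The shared loci of contig 3 were of ordinary strength, with medians of 6.35 and 7.46.

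**Figure D4:**
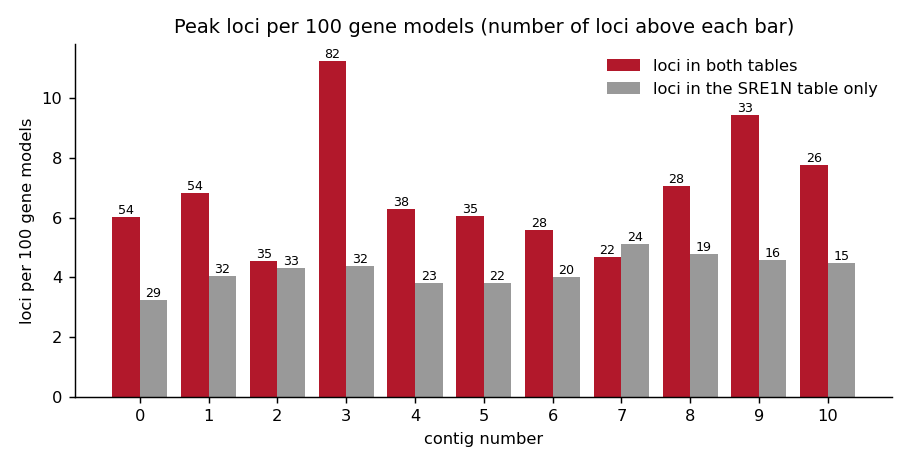
Loci per 100 gene models on each of the 11 large contigs, for loci in both tables (red) and in the SRE1N table only (grey), with the number of loci above each bar. The red bar of contig 3 reaches 11.3 with 82 loci and that of contig 2 reaches 4.56 with 35 loci, while the grey bars stay between 3.24 and 5.13.

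The small contigs gave few shared peaks. Contigs 11 to 21 reach between 394 and 49465 bases, hold 57 of the gene models between them, and none of these genes had at least 10 counts in all 3 wild type (N) libraries. They held 29 SRE1N entries and 62 cyp61- entries, of which 9 and 10 overlapped the other table, at 6 shared loci. Every entry of both tables on these contigs had a raised local background. Contigs 12, 13, 17 and 18 had cyp61- entries and no SRE1N entry. The 6 loci had best fold enrichments of 1.29 to 2.81 in the SRE1N table and 2.24 to 5.17 in the cyp61- table.

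The very start of contigs held shared loci too, and 6 of them began within 100 bases of the first base, on contigs 2, 3, 4, 7, 9 and 20. No locus limited to 1 table began there. The counts are small, 6 of 441 shared, 0 of 277 SRE1N-only and 0 of 132 cyp61-only loci, and their difference was not tested. The 5 on large contigs were 238 to 342 bases wide, with fold enrichments of 2.82 to 3.63 in the SRE1N table and 6.03 to 10.6 in the cyp61- table. Their pileups in the SRE1N table were high, 276 to 465 reads, over local backgrounds of 81.5 to 132 reads. All 6 had a raised local background in every entry. Whether reads at these positions come from repeated sequence was not tested.

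Neighbouring shared loci were a median of 29466 bases apart from edge to edge (425 gaps, quartiles 11459 and 59371). The closest pairs were 221 bases apart on contig 3 (between 1671757 and 1671979), 240 bases apart on contig 9 (787754 and 787995) and 349 bases apart on contig 0 (2450035 and 2450385). The longest stretches without a shared locus were 255819 bases on contig 0 (from 1291134 to 1546954), 249539 bases on contig 4 (948391 to 1197931) and 247983 bases on contig 10 (379209 to 627193). On contig 3 the median gap was 13684 bases, against 18452 to 53019 on the other large contigs. SRE1N-only loci, which are fewer, were a median of 50693.5 bases apart.

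**Figure D5:**
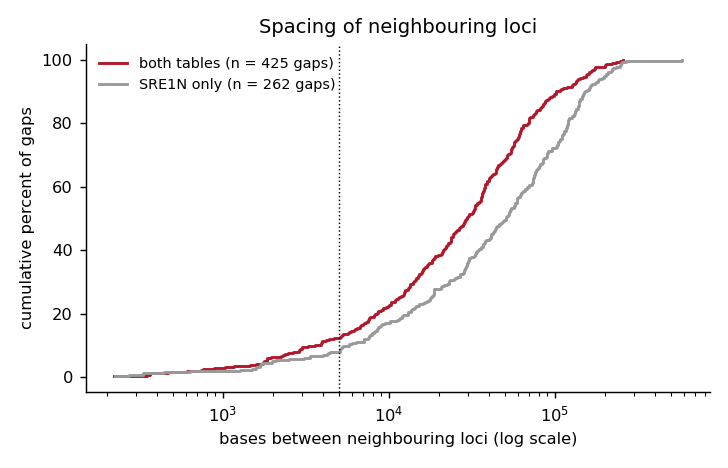
Cumulative percent of gaps between neighbouring loci against the gap in bases on a log axis, for the 425 gaps between shared loci (red) and the 262 gaps between SRE1N-only loci (grey); the dotted line marks 5000 bases. Of the gaps between shared loci, 12.2% lie at or under 5000 bases and 89.2% at or under 100000 bases, against 8.02% and 72.1% for SRE1N-only loci.

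Some shared loci sat in small groups. With clusters defined as runs of loci no more than 5000 bases apart, 94 of the 441 loci (21.3%) fell into 42 clusters: 34 of 2 loci, 6 of 3 and 2 of 4. Among SRE1N-only loci, 42 of 277 (15.2%) did so, all in pairs. These loci are fewer on the same contigs, which lowers the share in clusters, and the shares were not adjusted for number. At gaps of at most 10000 bases the largest cluster held 5 loci in both kinds, with 37.9% of shared and 29.2% of SRE1N-only loci in clusters. Clustered shared loci had a median best fold enrichment of 7.25 in the SRE1N table and 8.65 in the cyp61- table, against 6.002 and 7.83 for the 347 that stood alone. Their median widths were 662 and 643 bases. In windows of 100000 bases over the large contigs, shared loci averaged 2.15 per window with a variance 1.29 times the mean, and 29 of 202 windows had none. For SRE1N-only loci the variance was 0.862 times the mean. The 2 densest windows were both on contig 3, with 10 loci between 300001 and 400000 and 8 between 600001 and 700000.

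Each cluster of 4 lay in one of those windows. The first ran over 13498 bases of contig 3, with loci from 365638 to 366316 (7.08-fold in the SRE1N table, 11.4-fold in the cyp61- table), 370992 to 371836 (19.1-fold and 21.7-fold), 375790 to 376904 (7.61-fold and 5.96-fold) and 378699 to 379135 (5.88-fold and 6.40-fold). The second ran over 9482 bases, with loci from 667728 to 668389 (9.37-fold and 9.24-fold), 668756 to 669423 (12.6-fold and 9.59-fold), 671188 to 672886 (9.24-fold and 12.1-fold) and 676817 to 677209 (4.66-fold and 11.01-fold). Among the clusters of 3, the one with the highest fold enrichment lay on contig 9 from 346066 to 351558. Its loci stood at 16.6-fold, 11.1-fold and 14.6-fold in the SRE1N table and at 16.7-fold, 13.1-fold and 10.7-fold in the cyp61- table. These 3 loci lay within 5493 bases and were above 10-fold in both tables.

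The authors also deposited a shape-scored peak table for each strain, made from the same strains and limited, by its name, to differentially expressed genes. It comes from the same experiment and is no independent evidence. The SRE1N shape-scored table has 552 entries, and 404 of the 767 shared SRE1N entries overlapped one (52.7%), beside 48.9% of all 1156 entries and 41.4% of those left out. The cyp61- shape-scored table has 51 entries, and 79 shared entries overlapped one (10.3%), beside 7.53% of all entries. Read from the other side, 239 of the 552 SRE1N shape-scored entries (43.3%) and 46 of the 51 cyp61- shape-scored entries (90.2%) lay in shared loci. Another 195 of the 552 lay in no locus of either table.

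Within shared loci the shape-scored entries were narrow and near the middle. The 239 SRE1N shape-scored entries in shared loci had a median length of 318 bases, and their centres lay a median of 86.5 bases from the centre of the locus. Their shape score, the authors' own value, had a median of 14.5, against 8.19 for those in SRE1N-only loci and 4.66 for those in no locus. Of the 441 loci, 219 held 1 such entry, 10 held 2 and 212 held none. The median best SRE1N fold enrichment was 6.82 in loci with such an entry and 5.92 in loci without.

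In all, 42 shared loci were listed in all 4 tables, on 11 contigs. They had median best fold enrichments of 13.8 in the SRE1N table and 13.1 in the cyp61- table, against 5.97 and 7.73 for the other 399. They included 9 of the 20 loci that ranked highest in both strains. Among these were contig 1 from 1302747 to 1303859 with shape scores of 31.4 in the SRE1N table and 4.77 in the cyp61- table, contig 6 from 617918 to 619473 with 36.9 and 15.0, and contig 0 from 579797 to 581326 with 30.7 and 21.3. The locus on contig 5 from 1385557 to 1387418, the highest of the cyp61- table, had a score of 44.2 in the SRE1N table and no entry in the cyp61- shape-scored table.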

How the data were processed

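ChIP-exo peak tables of 2 strains were used, each standing for 3 replicates per the labels. For each peak the authors deposited, per the file headers, a contig, start, end and length, a fold enrichment (a ratio over background) and −log10 of the p-value and q-value. The deposited shape-scored tables give each peak a shape score with its p-value (per the file headers). The deposited count table of the wild type (N), holding total read counts per gene, served only for the contig of each gene and for whether the gene was detected (at least 10 counts in all 3 libraries). The submitters' processing notes name MACS2 and Bowtie2 2.3.5.1, with no role. Control library, cutoffs and the way replicates were joined: not given in the sources used here.

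Tables were joined with Python 3.11.15, pandas 2.3.3 and SciPy 1.17.1. Entries sharing 1 base were merged to loci. Pileup and background were solved from fold enrichment and p (pseudocount 1). Background levels are those held by at least 10% of a table's entries. Interval and pileup steps were tested on simulated data. Loci were picked as the 20 best by the worse of their 2 ranks by fold enrichment, and not all 20 are named. Also picked were the 3 widest, narrowest, most listed and most unequally ranked, and the 3 largest clusters and longest gaps. Ties among the 324 shared loci with 2 SRE1N entries were broken by SRE1N fold enrichment. The peaks and lists were chosen with earlier results of these data known. Numbers limit precision: 8 to 1542 stacked reads lie behind a shared peak.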

Additional observations from a re-analysis of the deposited data

How the results depend on the processing

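No paired analysis was possible because each strain has 1 peak table for all replicates and no result comes from a test. Of 40 alternatives, 26 left their value within the limits set (1.5 times a count, or the 95% interval of a median or share) and 14 did not. The 767 shared entries were 696 when at least 50% of the entry had to be covered (60.2%) and 680 when this held for both entries (58.8%), and stayed at 767 with edges 100 bases apart. With at least 5-fold enrichment in both tables, 417 of 477 entries at 267 loci were shared, a median of 41345 bases apart. With −log10 q of at least 10 in both tables, 292 loci remained. Settings chosen after seeing the data kept 1 background level per table, left out raised local backgrounds, or kept only contigs 0 to 10. The lower levels gave 355 of 486 entries (73.0%), with a median of 4.84-fold. The higher levels gave 92 of 482 entries (19.1%) at 92 loci, with a median of 13.1-fold, since the cyp61- table has only 104 such entries. Without raised local backgrounds the median was 5.901-fold over 680 entries, and by best entry per locus it was 6.41-fold. The width of a shared locus was 647 bases in place of 596 for an entry. Clusters held 52 shared loci at gaps of 2000 bases and 167 at 10000, beside 26 and 81 SRE1N-only loci. The ratio of contig 3 to the median large contig was 1.79 per gene model, 1.75 per megabase and 1.87 without raised local backgrounds. The cyp61- entries that overlap had a median pileup of 27 reads, and the part of depth in which peaks are shared was not tested.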
